A study of Rattus norvegicus with 30 samples.

Results

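Cytochrome P450 genes were examined in whole lung of neonatal rats. The genes were taken by name: a protein-coding biotype in the deposited table and a symbol made of Cyp, a family number, a subfamily letter and a gene number. This gave 70 of the 35224 genes in the table, and 32 of the 70 had enough counts to be tested. Cytochrome P450 enzymes are haem proteins that insert an oxygen atom into their substrate with electrons supplied by NADPH-cytochrome P450 reductase in the endoplasmic reticulum or by adrenodoxin in mitochondria. Members of families 1 to 4 handle foreign chemicals, fatty acids and eicosanoids, while other families make or break down retinoic acid, oxysterols, bile acids, vitamin D and steroid hormones. In lung the best known members are those of the airway secretory (club) cell, which activate inhaled toxicants, and the retinoic acid hydroxylases, which set how much retinoic acid a developing tissue keeps.

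The lungs came from neonatal rats of an oxygen model of bronchopulmonary dysplasia. One arm is labelled 85% oxygen, begun within 24 hours of birth, and the control arm is labelled 21% oxygen, that is room air. The arms changed places every 24 hours to even out nursing. Lung tissue of about 40 mg per sample, without the trachea, was sequenced on postnatal days 1, 3, 7, 10 and 14, with 3 libraries per group and 30 libraries in all. The labels give 12 rats per arm but 15 libraries per arm, and none says that the libraries of a group are separate animals, so a p-value reflects how far these libraries scatter, and that scatter may be technical. The genes Cdkn1a, Gdf15 and Nqo1, known to rise in hyperoxic rodent lung, went against the labels. At day 14 Cdkn1a had 29.4 ± 4.37 CPM in 85%-labelled and 430 ± 42.4 CPM in 21%-labelled lungs (SD, n = 3 each). CPM are counts per 1000000 of a library after TMM scaling between libraries. Gdf15 and Nqo1 were lower in the 85%-labelled lungs as well. The groups are therefore called 85%-labelled and 21%-labelled, and each direction below is that of the labels. Total counts were 14951463 to 18074590 per library, with a median of 16069831. The share of counts from mitochondrially encoded genes was 2.65% to 19.1% and exceeded 6% in 4 libraries, 85%-labelled replicates 1 and 3 of day 1, 85%-labelled replicate 3 of day 3 and 21%-labelled replicate 3 of day 3. In whole lung, fewer cells of a type and less RNA per cell cannot be told apart.

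The retinoic acid hydroxylases Cyp26a1 and Cyp26b1 carried the largest called rises at day 14 in the 85%-labelled lungs and are shown with their upstream sequence, because Cyp26a1 is a textbook target of the retinoic acid receptor through a direct repeat in its promoter. The stretches are the 250 bases before the RefSeq gene start in the rat assembly GRCr8, 5′ to 3′ on the gene's strand: chr1:244883572-244883821, plus strand, for Cyp26a1 and chr4:118616177-118616426, minus strand, for Cyp26b1. Capitals mark the direct repeat, which was searched for on both strands as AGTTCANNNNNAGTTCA and the 3 other pairings of AGTTCA and AGGTCA with 5 bases between them.
Cyp26a1: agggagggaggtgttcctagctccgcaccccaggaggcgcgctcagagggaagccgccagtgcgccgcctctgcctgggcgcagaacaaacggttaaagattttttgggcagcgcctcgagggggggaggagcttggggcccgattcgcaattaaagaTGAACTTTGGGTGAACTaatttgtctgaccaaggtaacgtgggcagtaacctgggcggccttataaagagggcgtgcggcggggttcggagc
Cyp26b1: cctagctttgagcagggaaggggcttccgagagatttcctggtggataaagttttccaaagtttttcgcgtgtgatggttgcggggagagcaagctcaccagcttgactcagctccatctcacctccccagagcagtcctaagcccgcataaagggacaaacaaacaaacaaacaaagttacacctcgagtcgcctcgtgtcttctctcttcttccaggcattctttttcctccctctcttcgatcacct
The Cyp26a1 stretch holds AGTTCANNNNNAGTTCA on the reverse strand, at -92 to -76 from the start. The Cyp26b1 stretch holds none of the 4 repeats, which says only that these letters are not in this window. Any of the 4 repeats was present in 10 of 33469 rat promoter windows of this length, or 0.0299%, and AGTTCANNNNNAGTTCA in 3, or 0.00896%. RefSeq windows were matched by symbol for 56 of the 70 genes and for 27 of the 32 tested genes, and among those 27 only the Cyp26a1 window held a repeat.

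Of the 70 P450 genes 32 had enough counts to be tested, beside 17571 of the 35224 genes of every biotype in the deposited table. Between 38 and 46 of the 70 genes had at least 1 count in a library, and the family held 0.043% to 0.0847% of a library's counts. Of the 38 untested genes, 10 had no count in any of the 30 libraries and 25 had 1 to 99 counts in total. A count of 0 allows up to 3 counts in a library, or 0.166 to 0.242 CPM at these depths, for counting error only. The silent genes are known mainly from liver, kidney or skin. They were Cyp7a1 and Cyp8b1, the bile acid enzymes of the hepatocyte, Cyp24a1, the vitamin D catabolic enzyme of the kidney, and Cyp2b3, Cyp2b12, Cyp2b15, Cyp2c6v1, Cyp2c7, Cyp2c12 and Cyp2c24 of the drug-metabolising CYP2 family. The untested gene with the most counts was Cyp4a1, a fatty acid hydroxylase, with 145 counts over the 30 libraries, against 129 for Cyp1a1, the tested gene with the fewest. Of the 70 genes, 23 lie on chromosome 1, 8 of them tested, and 14 on chromosome 7, 7 of them tested.

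Cyp4b1, which hydroxylates fatty acids and activates several lung toxicants, had the highest level, 55.3 CPM per kilobase of gene length over the 30 libraries. It alone held 18.9% to 29.7% of the summed per-kilobase P450 level of a group. That sum and this ranking cover the genes taken by name and do not include Cyp2b1, which has no row under that symbol. Cyp20a1, an orphan with no settled substrate, followed with 23.2 CPM per kilobase, and Cyp2f4, the rat member of the subfamily that activates naphthalene in club cells, with 21.9. The next were Cyp4f6, which hydroxylates leukotriene B4, at 19.6, and the fatty acid hydroxylase Cyp2u1 at 14.4 CPM per kilobase. Cyp2s1, an epithelial P450, had 12.7 CPM per kilobase, Cyp4v3, the rat relative of a human fatty acid hydroxylase of the retina, 11.8, and Cyp2d4 11.3. Cyp26b1 had 11.2 and Cyp1b1, which oxidises oestradiol and polycyclic hydrocarbons, 6.58 CPM per kilobase. The libraries of both arms spanned overlapping ranges for each of the 32 genes when the 5 days were pooled.

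**Figure D1:**
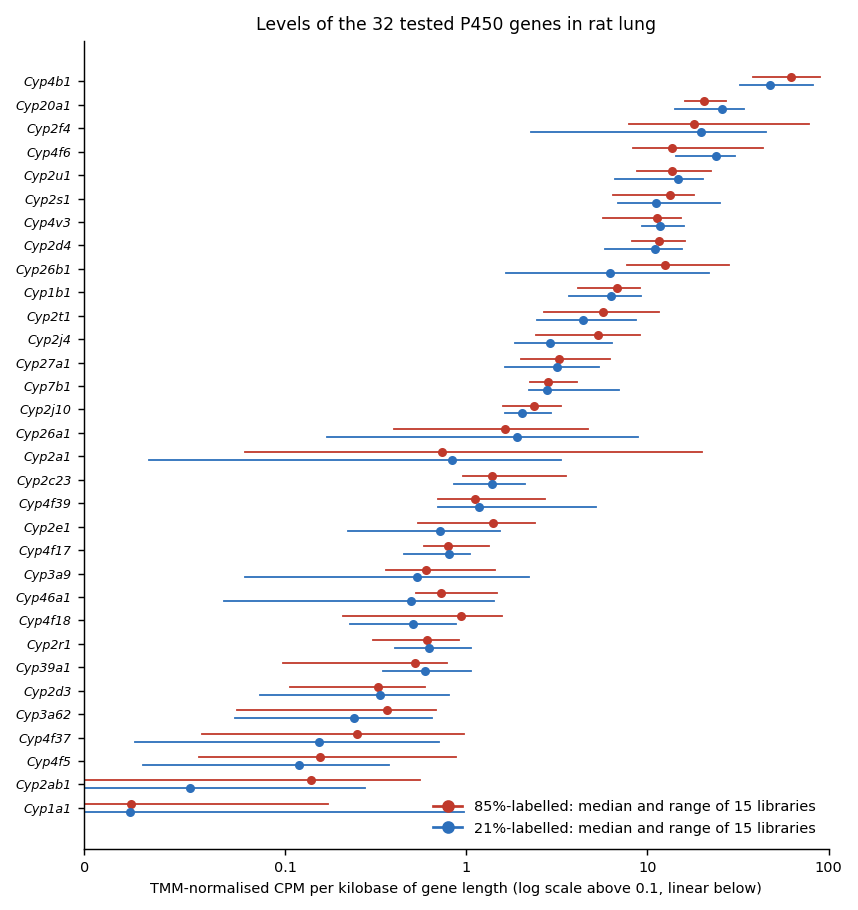
Level of each of the 32 tested P450 genes in TMM-normalised CPM per kilobase of gene length; the point is the median and the line the range of the 15 libraries of an arm (85%-labelled above, 21%-labelled below). Cyp4b1 stands above the rest at 55.3 on average, and the ranges of the arms overlap for each gene.

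Levels are CPM after TMM scaling, as above. From here on differences are log2 ratios of 85%-labelled over 21%-labelled lungs with an approximate SE. A rise or fall at a day is a higher or lower level in 85%-labelled than in 21%-labelled lungs of that day. Change over time is named as change with age. A gene is called at an edgeR quasi-likelihood adjusted p under 0.05 over the 17571 genes tested and a size of at least 0.5. At day 14, 12 of the 32 tested P450 genes were called, 8 higher and 4 lower in the 85%-labelled lungs, or 37.5%, beside 21.2% of all tested genes (10.5% higher and 10.8% lower). The median difference was 0.36 for the 32 genes and 0.0096 for all genes. The ranges of the arms did not overlap for 15 of the 32, 10 higher and 5 lower, or 46.9%, beside 50.1% of all genes. The calls spread over retinoic acid, fatty acid, xenobiotic and oxysterol enzymes.

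Both tested retinoic acid hydroxylases were higher in the 85%-labelled than in the 21%-labelled lungs at day 14. Cyp26b1, which the deposited table places on chromosome 4 at 116261796 to 116278615, had 35.0, 43.9 and 42.3 CPM in 85%-labelled lungs, against 7.52, 10.5 and 13.4 CPM in 21%-labelled lungs. The lowest 85%-labelled library was higher than the highest 21%-labelled one. The difference was 1.95 ± 0.317 (adjusted p = 7e-05). Cyp26a1, on chromosome 1 at 256382791 to 256386729, was rarer, with 2.52, 2.34 and 1.11 CPM in 85%-labelled and 0.313, 0.667 and 0.306 CPM in 21%-labelled lungs. Its groups did not overlap either, and the difference was 2.19 ± 0.491 (adjusted p = 0.00183). Cyp26c1, the family's remaining member and the neighbour of Cyp26a1 in the deposited coordinates, was too rare to test, with 9 counts in the 3 85%-labelled and 9 counts in the 3 21%-labelled libraries of day 14.

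Cyp26b1 was also called at day 10, at which its difference was 1.98 ± 0.314 (adjusted p = 0.000733). It had 51.8, 57.0 and 62.8 CPM in 85%-labelled lungs, against 17.9, 17.6 and 7.78 CPM in 21%-labelled lungs of that day. At days 3 and 7 its groups did not overlap, yet it was not called: it had 105, 66.7 and 90.2 CPM in 85%-labelled and 47.6, 49.9 and 48.1 CPM in 21%-labelled lungs at day 3, where the difference was 0.85 ± 0.302 (adjusted p = 0.398). At day 1 the arms overlapped, with 48.0, 129 and 107 CPM in 85%-labelled and 79.8, 60.3 and 100 CPM in 21%-labelled lungs. Cyp26a1 followed another course, with a difference of -0.61 ± 0.452 at day 10 (adjusted p = 0.600) and a call at day 14 only. The day 10 call of Cyp26b1 was kept without each library in turn but not in a fit of the 6 day 10 libraries alone (adjusted p = 0.122).

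**Figure D2:**
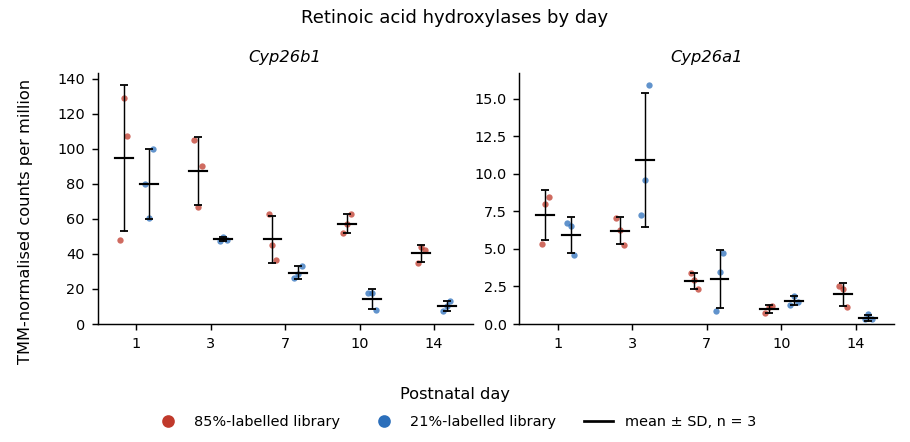
TMM-normalised CPM of the retinoic acid hydroxylases Cyp26b1 (left) and Cyp26a1 (right) by postnatal day; points are libraries, 85%-labelled left of 21%-labelled within each day, and black lines are the mean ± SD of 3. Both genes have lower means at day 14 than at day 1 in each arm. The course between is not a steady fall: the 21%-labelled mean of Cyp26a1 is 5.94 CPM at day 1 and 10.9 CPM at day 3. At day 14 the 85%-labelled libraries of Cyp26b1 lie at 35.0 to 43.9 CPM, above the 7.52 to 13.4 CPM of the 21%-labelled ones.

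Among the fatty acid and xenobiotic enzymes, Cyp2d4, a CYP2D enzyme best known from rat brain, had the smallest adjusted p at day 14. It lies on chromosome 7 at 123599266 to 123608436 and had 24.9, 28.2 and 27.4 CPM in 85%-labelled lungs, against 10.3, 11.2 and 11.9 CPM in 21%-labelled lungs at day 14. Its difference was 1.27 ± 0.173 (adjusted p = 7.21e-06). Cyp2u1 had 51.6, 58.2 and 47.5 CPM in 85%-labelled and 17.1, 23.7 and 31.1 CPM in 21%-labelled lungs. No library of one arm reached the range of the other, and the difference was 1.13 ± 0.222 (adjusted p = 0.000534). Cyp4f18, which in mouse hydroxylates leukotriene B4 in myeloid cells, had 3.41, 3.85 and 4.10 CPM in 85%-labelled and 1.00, 1.76 and 0.795 CPM in 21%-labelled lungs. Its groups were apart, with a difference of 1.67 ± 0.464 (adjusted p = 0.00978), and it was lost without 21%-labelled replicate 3 (1.45, adjusted p = 0.0583).

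Rises of 3 further genes were called at day 14 and did not survive the removal of single libraries. Cyp2e1, the ethanol-inducible enzyme, had 3.95, 3.6 and 5.60 CPM in 85%-labelled and 1.57, 1.39 and 2.02 CPM in 21%-labelled lungs, a difference of 1.40 ± 0.469 (adjusted p = 0.0307). Its adjusted p passed 0.05 when 85%-labelled replicate 1 (0.0543) or 3 (0.119) was left out, or any of the 21%-labelled replicates 1, 2 and 3 (0.0886, 0.102 and 0.0519). Cyp2j10, of the arachidonic acid epoxygenase subfamily, had 12.6, 12.9 and 8.98 CPM in 85%-labelled and 6.64, 8.06 and 7.71 CPM in 21%-labelled lungs, a difference of 0.62 ± 0.201 (adjusted p = 0.0245). The groups of both genes were apart, and the Cyp2j10 call was lost without 85%-labelled replicate 1 or 2 (adjusted p = 0.0997 and 0.113) or 21%-labelled replicate 1 or 3 (0.0944 and 0.0547). Cyp3a62, a drug-metabolising CYP3A enzyme known from rat intestine, had 19, 16 and 16 counts in 85%-labelled and 3, 4 and 7 counts in 21%-labelled libraries. Its difference of 1.79 ± 0.621 (adjusted p = 0.0363) was lost without 85%-labelled replicate 1, 2 or 3 (adjusted p = 0.0914, 0.0741 and 0.0574) or 21%-labelled replicate 1 or 2 (0.131 and 0.104), and with no low-count filter (0.0588).

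Of 4 tested oxysterol and bile acid enzymes, 2 were called lower in the 85%-labelled lungs at day 14 and none higher. This was 50%, beside 21.2% of all tested genes. The 2 that were not called had positive differences. Cyp7b1, the oxysterol hydroxylase of the alternative bile acid pathway, lies on chromosome 2 at 102701903 to 102871257 and had 8.03, 8.59 and 9.81 CPM in 85%-labelled lungs, against 14.8, 19.6 and 16.9 CPM in 21%-labelled lungs. The arms were apart, with a difference of -0.96 ± 0.208 (adjusted p = 0.00139). Cyp39a1, an oxysterol hydroxylase that acts on the cholesterol product of Cyp46a1, had 0.479, 0.316 and 1.66 CPM in 85%-labelled and 2.63, 3.39 and 3.24 CPM in 21%-labelled lungs. Each 85%-labelled library was lower than each 21%-labelled one, with replicate 3 nearest to them, and the difference was -1.89 ± 0.418 (adjusted p = 0.0016). Cyp27a1, the mitochondrial sterol hydroxylase, had 13.8, 13.2 and 14.2 CPM in 85%-labelled and 10.8, 12.3 and 11.7 CPM in 21%-labelled lungs and was not called (0.24 ± 0.218, adjusted p = 0.460), although its ranges were apart. Cyp46a1 was not called either (0.48 ± 0.466, adjusted p = 0.497).

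The orphan Cyp20a1 was lower in the 85%-labelled than in the 21%-labelled lungs at day 14. It had 36.5, 43.9 and 32.1 CPM in 85%-labelled and 55.8, 51.0 and 61.6 CPM in 21%-labelled lungs, a difference of -0.58 ± 0.131 (adjusted p = 0.00191). The arms were apart, but without 85%-labelled replicate 3 the difference was -0.50, at the size limit, and the call was lost. Cyp4f6 had 24.3, 15 and 27.9 CPM in 85%-labelled and 29.1, 45.3 and 44.6 CPM in 21%-labelled lungs, without overlap. Its difference of -0.82 ± 0.300 (adjusted p = 0.0463) was lost without 85%-labelled replicate 1 or 2 (adjusted p = 0.0716 and 0.190) or 21%-labelled replicate 2 or 3 (0.115 and 0.136). It was also lost with RLE scaling (0.0502), with no low-count filter (0.0649) and with the replicate block (0.0838). The calls of Cyp2d4, Cyp26b1, Cyp26a1, Cyp2u1, Cyp7b1 and Cyp39a1 were kept under each alternative setting and without each library.

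**Figure D3:**
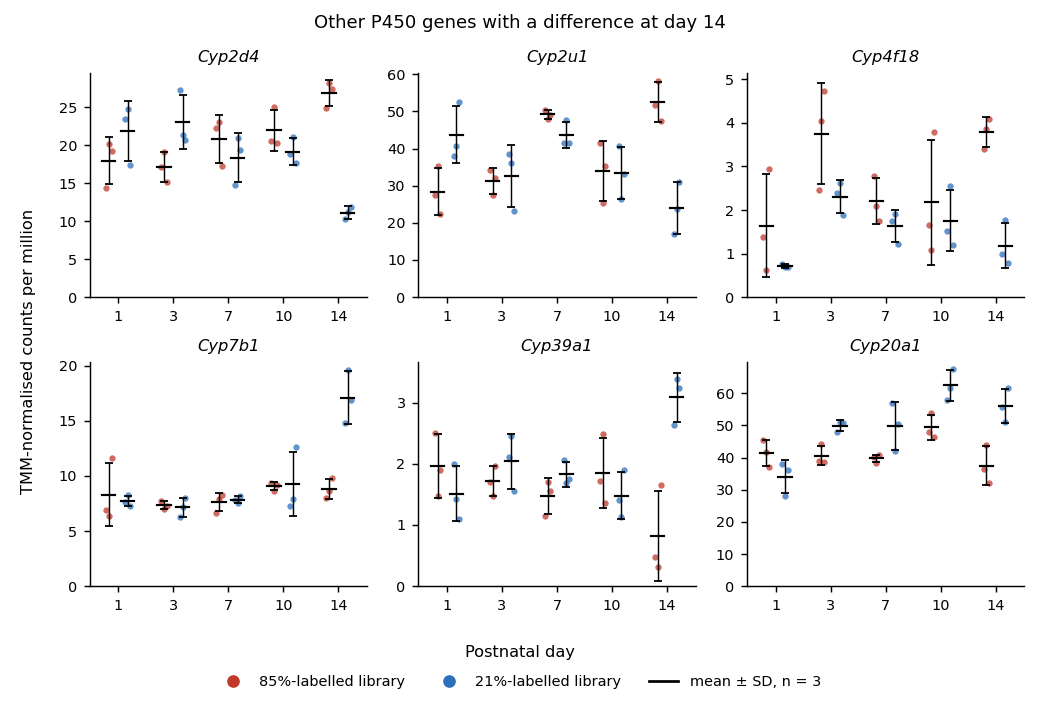
TMM-normalised CPM by postnatal day of 6 P450 genes called at day 14; points are libraries, 85%-labelled left of 21%-labelled, and black lines are the mean ± SD of 3. The arms separate at day 14, upwards in the 85%-labelled libraries for Cyp2d4, Cyp2u1 and Cyp4f18 and downwards for Cyp7b1, Cyp39a1 and Cyp20a1.

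Cyp4b1, the most abundant member, was not called at day 14: it had 128, 126 and 173 CPM in 85%-labelled and 130, 83.9 and 93.1 CPM in 21%-labelled lungs, a difference of 0.48 ± 0.193 (adjusted p = 0.0740). Without 21%-labelled replicate 1 the difference was 0.70 (adjusted p = 0.0181). Cyp2j4, an arachidonic acid epoxygenase, had 10.2, 6.12 and 8.21 CPM in 85%-labelled and 3.82, 5.39 and 4.16 CPM in 21%-labelled lungs and missed the threshold (0.87 ± 0.341, adjusted p = 0.0632), whereas DESeq2 called it (adjusted p = 0.0440). Cyp2s1 (-0.26 ± 0.248), Cyp4v3 (-0.39 ± 0.189) and Cyp1b1 (0.16 ± 0.286) were not called at day 14 either.

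The largest difference in either direction at day 14, 3.64 ± 1.47 for Cyp2a1, was not called (adjusted p = 0.0716) and rested on 1 library. Cyp2a1, a steroid hydroxylase of rat, had 8.15, 1.52 and 114 CPM in 85%-labelled and 5.77, 4 and 0.183 CPM in 21%-labelled lungs; without 85%-labelled replicate 3 the difference was 0.52, without 85%-labelled replicate 2 it was called (4.17, adjusted p = 0.0465), and DESeq2 called it too (adjusted p = 0.0282). Cyp2f4 had 37.9, 23.0 and 148 CPM in 85%-labelled and 49.2, 29.1 and 4.34 CPM in 21%-labelled lungs, and its difference of 1.34 ± 0.752 (adjusted p = 0.207) was 0.12 without that library. The arms overlapped for both genes. Of the 32 genes these varied most between libraries of the same group, with a within-group SD of 2.01 for Cyp2a1 and 1.03 for Cyp2f4 on the log2 scale, above 99.7% and 96.2% of all tested genes. The median was 0.41 for the 32 genes and 0.33 for all tested genes.

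Some secretory genes of the conducting airway were high in the same library. Scgb3a1, a secretoglobin, had 9.17, 0.884 and 821 CPM in 85%-labelled and 5.08, 1.39 and 0.245 CPM in 21%-labelled lungs at day 14. Muc5b, an airway mucin, had 1.14, 0.379 and 167 CPM in 85%-labelled and 12.8, 1.52 and 0.122 CPM in 21%-labelled lungs. Bpifa1, an airway defence protein, reached 113 CPM in 85%-labelled replicate 3 and had at most 0.815 CPM in the other 5 libraries. The summed level of the 8 club cell markers, in which Scgb1a1 and Scgb3a2 also count, was 3800 to 6730 CPM in 85%-labelled and 3710 to 7310 CPM in 21%-labelled lungs and so did not set the arms apart. Of the 7 markers tested, 4 had positive differences, and the median was 0.054. Differences ran from -0.93 for Scgb3a2 (adjusted p = 0.0662) to 6.95 for Scgb3a1 (adjusted p = 0.0569). Only Bpifa1 was called, or 14.3% of these markers, beside 21.2% of all tested genes. Bpifa1 was at 0 in 85%-labelled replicate 2 and 21%-labelled replicate 3. The part of airway content in the Cyp2a1 and Cyp2f4 values was not tested. The deposited Cyp2a1 model spans 83653234 to 83766484 on chromosome 1, a wide stretch of the CYP2 gene cluster, and its close copies may share its reads.

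**Figure D4:**
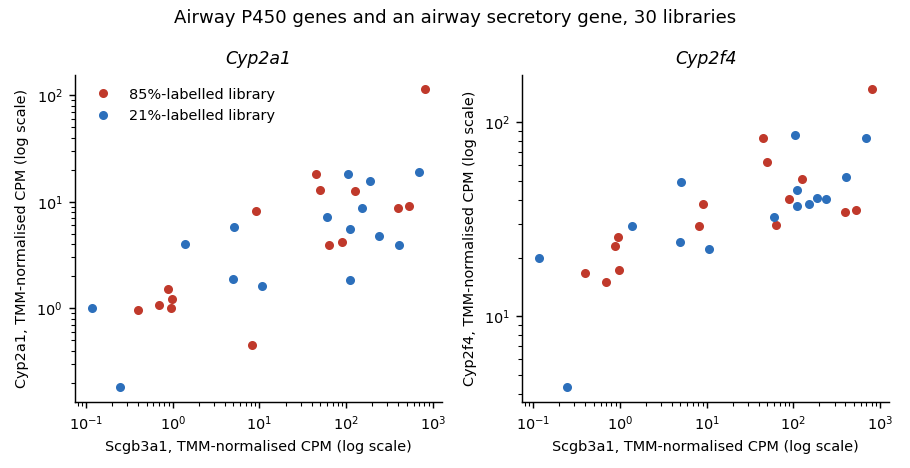
Cyp2a1 (left) and Cyp2f4 (right) against the airway secretory gene Scgb3a1 in the 30 libraries, all in TMM-normalised CPM on log axes, coloured by arm. The library highest in all 3 genes is 85%-labelled replicate 3 of day 14, with 114, 148 and 821 CPM, and the lowest library for both P450 genes is 21%-labelled replicate 3 of day 14, with 0.183 and 4.34 CPM.

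Markers of other cell types also differed between the arms at day 14, when 21.2% of all tested genes were called (10.5% higher and 10.8% lower). Summed endothelial markers were 3540 to 4030 CPM in 85%-labelled and 1260 to 1660 CPM in 21%-labelled lungs, and 7 of 9 were called higher. Summed macrophage markers were 319 to 349 CPM in 85%-labelled and 624 to 883 CPM in 21%-labelled lungs, with 8 of 9 lower. Summed alveolar type 2 markers were 11000 to 13000 CPM in 85%-labelled and 21600 to 24200 CPM in 21%-labelled lungs, with 7 of 10 lower. No gene of these 3 lists was at 0 in all 30 libraries. The part of cell composition in the P450 differences was not tested.

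Genes that work with P450 enzymes were examined at day 14 beside the family. At that day 21.2% of all tested genes were called (10.5% higher and 10.8% lower). Called were 30% of the electron donors, 27.3% of the nuclear receptors and 33.3% of the conjugation, epoxide and flavin enzymes below. No list was tested against the share of all genes. Of 10 tested electron donors and partners 3 fell and none rose: Por, the reductase that supplies microsomal P450 enzymes, with 138 ± 14.4 CPM in 85%-labelled and 221 ± 13.9 CPM in 21%-labelled lungs (SD, n = 3 each; -0.68, adjusted p = 0.000119), the adrenodoxin gene Fdx1 (-0.95) and the haem-binding partner Pgrmc2 (-0.54). The median over the 10 was -0.46. Of 11 nuclear receptors 3 rose and none fell, and all 3 are retinoic acid receptors: Rara (0.74), Rarb (0.64) and Rarg (0.56), with Rara at 151 ± 13 CPM in 85%-labelled and 90.6 ± 5.62 CPM in 21%-labelled lungs (SD, n = 3 each). Of 12 enzymes of conjugation, epoxide hydrolysis and flavin oxidation, 1 rose and 3 fell. Fmo1, a flavin monooxygenase, had 8.75 ± 1.28 CPM in 85%-labelled and 1.64 ± 0.462 CPM in 21%-labelled lungs (2.41, adjusted p = 0.000119), and Ephx1, the microsomal epoxide hydrolase, had 63.1 ± 17.6 CPM in 85%-labelled and 159 ± 5.29 CPM in 21%-labelled lungs (-1.33, adjusted p = 6.66e-06; SD, n = 3 each). The glutathione transferases Gstp1 (-1.21) and Gsta3 (-1.68) were the other falls. Both P450 genes whose symbols lie outside the name rule fell, thromboxane synthase Tbxas1 by 1.02 and the sterol demethylase Cyp51 by 0.75.

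The aryl hydrocarbon receptor induces Cyp1a1, Cyp1a2 and Cyp1b1, and Cyp1a1 is known to be inducible by hyperoxia in rodent lung. Cyp1a1 was scarce in these lungs. At day 3 it had 0, 4 and 3 counts in 85%-labelled and 45, 19 and 19 counts in 21%-labelled libraries, the highest group in the series, and the difference was -3.34 ± 0.927 (adjusted p = 0.188). The groups did not overlap at that day, but no call was made. At day 14 it had 2, 2 and 0 counts in 85%-labelled and 0, 0 and 0 counts in 21%-labelled libraries, so no fold is given. Cyp1a2 had 22 counts over the 30 libraries. Cyp1b1 was not called at any day and had 37.3, 31.6 and 37.0 CPM in 85%-labelled and 29.9, 26.9 and 38.4 CPM in 21%-labelled lungs at day 14. Of 8 tested genes of the receptor pathway, Nqo1 fell at day 14 and none rose, or 12.5%, beside 21.2% of all tested genes. Nqo1 had 40.7 ± 1.91 CPM in 85%-labelled and 81.2 ± 12 CPM in 21%-labelled lungs (SD, n = 3 each; -1, adjusted p = 0.00151).

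At day 1, 6 of the 32 genes were called, 4 higher and 2 lower, or 18.8%, beside 41.4% of all tested genes (20.6% higher and 20.8% lower). The rises were in sterol, fatty acid and arachidonic acid enzymes. Cyp46a1, the cholesterol hydroxylase known from neurons, had 3.56, 1.77 and 2.93 CPM in 85%-labelled and 1.05, 0.186 and 0.463 CPM in 21%-labelled lungs, a difference of 2.25 ± 0.494 (adjusted p = 0.0014). Cyp2j4 had 17.5, 4.68 and 8.79 CPM in 85%-labelled and 4.22, 3.6 and 4.46 CPM in 21%-labelled lungs, a difference of 1.33 ± 0.344 (adjusted p = 0.00374). The ranges were apart for both genes, for Cyp2j4 only just. Cyp4b1 rose by 0.56 ± 0.194 (adjusted p = 0.0209), with 177, 123 and 147 CPM in 85%-labelled and 116, 96.5 and 90.4 CPM in 21%-labelled lungs. The ranges were apart. Cyp4f18 rose by 1.18 ± 0.488 (adjusted p = 0.0489) with overlapping ranges, 1.37, 0.627 and 2.93 CPM in 85%-labelled and 0.762, 0.682 and 0.695 CPM in 21%-labelled lungs. Cyp4f39, the relative of a human enzyme of skin barrier lipids, had 4.61, 3.93 and 3.44 CPM in 85%-labelled and 6.91, 7.20 and 15.6 CPM in 21%-labelled lungs, a difference of -1.31 ± 0.351 (adjusted p = 0.00468). Cyp2u1 had 27.5, 35.2 and 22.5 CPM in 85%-labelled and 38.1, 40.8 and 52.4 CPM in 21%-labelled lungs, a difference of -0.62 ± 0.22 (adjusted p = 0.0234), opposite to its day 14 call.

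The mitochondrial share of the day 1 libraries was 19.1%, 5.31% and 11.5% in 85%-labelled replicates 1, 2 and 3 and 3.03%, 2.71% and 2.94% in the 21%-labelled ones. With that share as a covariate none of the 32 genes and 27 genes in all were called. Each 85%-labelled library of day 1 had a higher share than each 21%-labelled one, so the covariate cannot be fully separated from the arm there. Leaving out the 4 libraries above 6% keeps only replicate 2 of the 85%-labelled day 1 group. Only the size of the differences is therefore given for that fit. The difference of Cyp4f39 stayed at -1.31 with the covariate and -1.32 without those libraries. That of Cyp46a1 was 1.35 and 1.63 in turn. Both kept their direction, and with the covariate both calls were lost (adjusted p = 0.304 and 0.357). The differences of Cyp4b1 (0.15 and 0.29), Cyp2u1 (-0.28 and -0.30), Cyp2j4 (-0.16 and 0.20) and Cyp4f18 (0.74 and -0.17) were smaller in size. The part of the mitochondrial share in these results was not otherwise tested. Single libraries mattered too: without 85%-labelled replicate 1, Cyp4b1, Cyp2u1, Cyp2j4 and Cyp4f18 were lost (adjusted p = 0.114, 0.0717, 0.0777 and 0.0671), and without 85%-labelled replicate 3, Cyp2u1 and Cyp4f18 (0.122 and 0.482). Without 21%-labelled replicate 3, Cyp4b1, Cyp2u1, Cyp4f39 and Cyp4f18 were lost (0.106, 0.102, 0.0579 and 0.118), without 21%-labelled replicate 2 Cyp4b1 and Cyp4f18 (0.0874 and 0.125), and without 21%-labelled replicate 1 Cyp4f18 (0.0914). Cyp46a1 was kept without each single library.

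At days 3 and 7 edgeR called none of the 32 genes, beside 0.393% of all tested genes at day 3 (0.313% higher and 0.0797% lower) and 0.0854% at day 7 (0.0341% higher and 0.0512% lower), and DESeq2 called none either. At an unadjusted p under 0.05 there were 6 of the 32 at day 3, beside 1311 of the 17571 tested genes, and 6 at day 7, beside 2976. Without 85%-labelled replicate 3 of day 7, Cyp4b1 was called (0.86, adjusted p = 0.0237), having had 98.3, 143 and 75.7 CPM in 85%-labelled and 70.1, 69.0 and 63.9 CPM in 21%-labelled lungs. At day 10, 2 of the 32 rose and none fell, or 6.25%, beside 2.93% of all genes (1.75% higher and 1.18% lower). Besides Cyp26b1 this was Cyp2t1, a CYP2 gene of the chromosome 1 cluster, with 22.0, 12.3 and 9.31 CPM in 85%-labelled and 5.45, 7.76 and 6.98 CPM in 21%-labelled lungs (1.11 ± 0.303, adjusted p = 0.0437). The Cyp2t1 call was lost without 85%-labelled replicate 1 (0.69, adjusted p = 0.328) or 21%-labelled replicate 1, 2 or 3 (adjusted p = 0.157, 0.0584 and 0.120), and the gene overlaps Egln2 on the opposite strand. For days 1, 3, 7 and 10 in turn, the median difference of the 32 genes was 0.17, -0.14, 0.32 and 0.11, against 0.03, -0.023, 0.017 and -0.0047 for all tested genes.

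**Figure D5:**
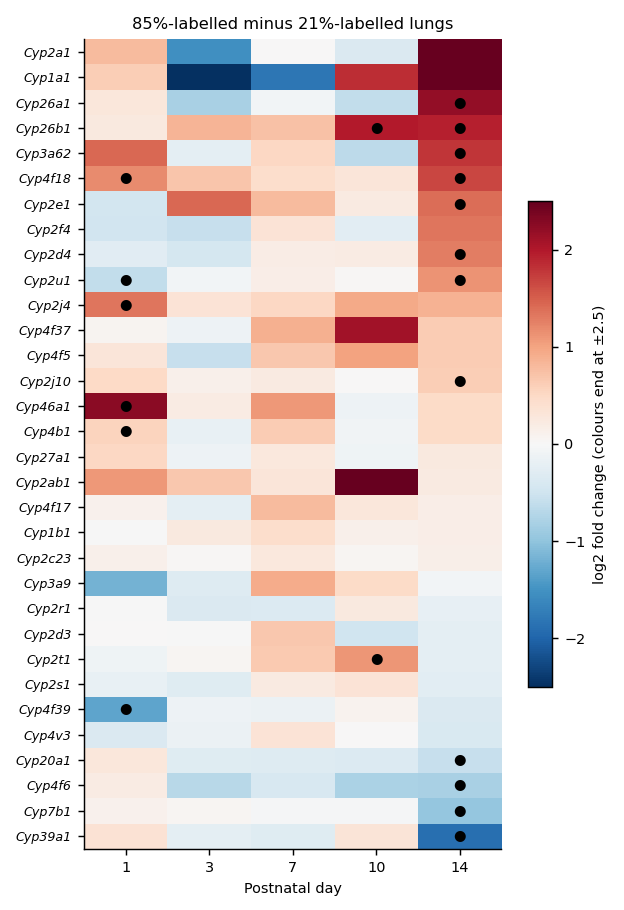
Log2 fold change, 85%-labelled minus 21%-labelled lungs, of the 32 tested P450 genes (rows, ordered by day 14) at 5 postnatal days (columns); dots mark called genes. Calls are 6, 0, 0, 2 and 12 from day 1 to day 14, and the uncalled Cyp2a1 and Cyp1a1 at the top of the day 14 column are those with 1 extreme library and with at most 2 counts per library.

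Whether the oxygen difference changed between days was tested with an F test for each gene. It passed at an adjusted p under 0.05 for 10 of the 32 genes, or 31.2%, beside 37.6% of all tested genes. Cyp2d4 had the smallest adjusted p (0.000157): its differences were -0.28, -0.43, 0.18, 0.20 and 1.27 from day 1 to day 14. Cyp2u1 (adjusted p = 0.00284) had -0.62, -0.063, 0.17, 0.029 and 1.13. Cyp26b1 (0.00735) and Cyp26a1 (0.00752) also passed, as did Cyp20a1 (0.0104), whose difference was 0.28 at day 1 and -0.58 at day 14. The oxysterol enzymes Cyp39a1 (0.0194) and Cyp7b1 (0.0269) had differences of 0.37 and 0.10 at day 1 against -1.89 and -0.96 at day 14. Cyp1a1 (0.0369), Cyp4b1 (0.0386) and Cyp46a1 (0.0428) were near the threshold: leaving out any 1 of 12, 14 and 22 of the 30 libraries ended the call of Cyp1a1, Cyp4b1 and Cyp46a1 in turn, with adjusted p up to 0.0725, 0.0723 and 0.115. Cyp20a1 was lost without 21%-labelled replicate 2 of day 1 (0.054), Cyp39a1 without 85%-labelled replicate 1 or 2 of day 14 (0.0668 and 0.056), and Cyp7b1 without those 2 libraries (0.073 and 0.0599) or 21%-labelled replicate 2 or 3 of day 14 (0.0718 and 0.0503). With the mitochondrial share as a covariate, Cyp20a1 (0.150), Cyp39a1 (0.0636), Cyp7b1 (0.062) and Cyp26b1 (0.0503) were lost. Cyp4b1 (0.0546) and Cyp46a1 (0.383) were lost too, so that 4 of the 10 calls were kept. The fit without the libraries above 6% keeps only replicate 2 of the 85%-labelled day 1 group, so no p-value of it is given. Cyp7b1 was also lost with no low-count filter (0.0547) and with the replicate block (0.061). Cyp2d4, Cyp2u1 and Cyp26a1 were kept under each alternative.

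Postnatal change was compared within each arm between days 14 and 1. The arms' comparisons share no library. In the 85%-labelled arm 10 of the 32 genes were called, 4 higher and 6 lower at day 14, or 31.2%, beside 51.1% of all tested genes (25.1% higher and 26% lower). In the 21%-labelled arm 11 were called, 3 higher and 8 lower, or 34.4%, beside 19.1% (9.04% higher and 10.1% lower). The median change of the 32 genes was -0.021 in the 85%-labelled and -0.10 in the 21%-labelled arm, against -0.041 and -0.026 for all genes.

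Both tested retinoic acid hydroxylases were lower at day 14 than at day 1 in both arms. In the 85%-labelled arm Cyp26b1 averaged 40.4 ± 4.74 CPM at day 14 and 94.7 ± 42 CPM at day 1, a change of -1.23 ± 0.304 (adjusted p = 0.00162). In the 21%-labelled arm it averaged 10.5 ± 2.94 CPM at day 14 and 80.1 ± 19.9 CPM at day 1, a change of -2.93 ± 0.327 (adjusted p = 5.37e-07; SD, n = 3 each). The day 14 mean was thus 0.427 times the day 1 mean in the 85%-labelled arm and 0.131 times in the 21%-labelled arm. Cyp26a1 averaged 1.99 ± 0.766 CPM at day 14 and 7.25 ± 1.67 CPM at day 1 in the 85%-labelled arm (-1.87 ± 0.43, adjusted p = 0.000926). In the 21%-labelled arm it averaged 0.429 ± 0.206 CPM at day 14 and 5.94 ± 1.19 CPM at day 1 (-3.77 ± 0.493, adjusted p = 4.72e-06; SD, n = 3 each).

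Cyp27a1 rose with age in both arms, to 13.7 ± 0.501 CPM at day 14, against 6.14 ± 1.85 CPM at day 1, in the 85%-labelled arm (1.16 ± 0.223, adjusted p = 0.000201) and to 11.6 ± 0.771 CPM, against 4.27 ± 0.687 CPM, in the 21%-labelled arm (1.44 ± 0.226, adjusted p = 4.63e-05; SD, n = 3 each). Cyp2s1 fell in both, by 0.91 in the 85%-labelled arm (adjusted p = 0.00349) and by 0.83 in the 21%-labelled arm (adjusted p = 0.017). The second of these was lost without 21%-labelled replicate 1 or 2 of day 1 (adjusted p = 0.0679 and 0.0554) or replicate 3 of day 14 (0.132).

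Cyp2u1 and Cyp2d4 were called in opposite directions in the arms. Cyp2u1 rose in the 85%-labelled arm, with 52.4 ± 5.42 CPM at day 14 and 28.4 ± 6.39 CPM at day 1 (0.88 ± 0.221, adjusted p = 0.00176), and fell in the 21%-labelled arm, with 24.0 ± 6.98 CPM at day 14 and 43.8 ± 7.6 CPM at day 1 (-0.87 ± 0.221, adjusted p = 0.00561; SD, n = 3 each). The fall was lost without 21%-labelled replicate 1 of day 14 (-0.66, adjusted p = 0.0525). Cyp2d4 rose in the 85%-labelled arm, with 26.8 ± 1.75 CPM at day 14 and 17.9 ± 3.1 CPM at day 1 (0.58 ± 0.17, adjusted p = 0.00582), and fell in the 21%-labelled arm, with 11.1 ± 0.762 CPM at day 14 and 21.9 ± 3.92 CPM at day 1 (-0.97 ± 0.172, adjusted p = 0.000189; SD, n = 3 each). Its rise was 0.45 without 85%-labelled replicate 1 of day 1, under the size limit. Neither rise in the 85%-labelled arm was called with the mitochondrial share as a covariate (0.53 for Cyp2u1 and 0.28 for Cyp2d4).

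Cyp7b1 (1.15 ± 0.209, adjusted p = 0.000266) and Cyp20a1 (0.72 ± 0.132, adjusted p = 0.000268) rose with age in the 21%-labelled arm and were not called in the 85%-labelled arm. Their day 14 means were 17.1 ± 2.43 and 56.1 ± 5.34 CPM, against 7.72 ± 0.485 and 34.0 ± 5.12 CPM at day 1 (SD, n = 3 each). Also in the 21%-labelled arm Cyp4f39 (-1.36), Cyp3a9 (-1.81) and Cyp1a1 fell. The Cyp1a1 libraries held 0, 0 and 0 counts at day 14 and 3, 6 and 1 counts at day 1, and its call (adjusted p = 0.0489) was lost without replicate 1 or 2 of day 1 (adjusted p = 0.0793 and 0.164) or any 1 of the day 14 libraries (0.108 to 0.119). The Cyp4f39 call was lost without replicate 3 of day 1 (-0.85, adjusted p = 0.0989), and that of Cyp3a9, a CYP3A enzyme, without any single library other than replicate 1 of day 14 (adjusted p of 0.0513 to 0.184).

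In the 85%-labelled arm Cyp4f18 (1.21, adjusted p = 0.0271) rose with age and Cyp39a1 (-1.23, adjusted p = 0.0155), Cyp4f6 (-1.15, adjusted p = 0.00263) and Cyp2t1 (-0.81, adjusted p = 0.0256) fell. Without replicate 1 of day 1, which has 19.1% mitochondrial counts, Cyp4f6, Cyp4f18 and Cyp39a1 were lost (adjusted p = 0.0591, 0.0843 and 0.0689). Cyp4f18 was also lost without replicate 2 of day 1 (0.120) or replicate 3 of day 14 (0.0578), Cyp39a1 without replicate 1 or 2 of day 14 (0.0922 and 0.101), and Cyp2t1 without replicate 3 of day 1 (0.185) or replicate 1 or 2 of day 14 (0.0935 and 0.134). With the mitochondrial share as a covariate the change was -0.082 for Cyp4f6 (adjusted p = 0.902), -0.79 for Cyp39a1 (0.400), -1.01 for Cyp2t1 (0.146) and 1.67 for Cyp4f18 (0.169), and none was called. Without the libraries above 6% it was -0.45 for Cyp4f6, -0.84 for Cyp39a1 and -0.61 for Cyp2t1. That fit keeps only replicate 2 of day 1 in this arm. The calls of Cyp26a1, Cyp26b1, Cyp27a1 and Cyp2s1 in this arm were kept under each alternative.

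Some untested members had many of their counts in 1 library. Cyp2b2, of the phenobarbital-inducible CYP2B subfamily, had 89 counts in all, of which 79 were in 21%-labelled replicate 1 of day 7. Cyp2w1 had 35 counts, of which 22 were in 85%-labelled replicate 1 of day 10, the library with the highest Cyp2t1 of its group. Cyp2c11, a CYP2C enzyme of male rat liver, had 73 counts, of which 32 were in 21%-labelled replicate 2 of day 14. Their group values rest largely on those libraries.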

How the data were processed

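Lung RNA of 30 libraries was sequenced by the submitters, per the labels' protocols, with RNeasy extraction and the SMARTer mRNA-seq kit. The deposited values used for tests are raw counts per gene. The deposited FPKM values were used only as a check: they equal the count divided by the deposited length and a library size that was 0.791 to 1.1 times the library's total (relative deviation at most 1e-07). Not given in the sources used here are the aligner, the counter with its strand setting, the annotation and the rat build. Both builds in the submitters' processing notes, GRCm38 and mm10, are mouse builds, while the gene IDs are rat Ensembl IDs, so coordinates are those of the deposited table.

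The tests used edgeR 4.0.16 (R 4.3.3): filterByExpr by group (17571 genes left), TMM scaling, robust quasi-likelihood fit of the 30 libraries with 1 mean per group and 20 residual degrees of freedom, and Benjamini-Hochberg adjustment over all tested genes. Calls were made at an adjusted p under 0.05 with a log2 fold change of 0.5 or more in either direction; F tests had no size limit. The SE is approximate: the size of the log2 fold change over the square root of F. Alternatives were DESeq2 1.42.0, RLE scaling, no filter, a mitochondrial covariate, leaving out libraries, a replicate block and fits of the compared groups only. The steps were tested on counts simulated for the day 14 comparison. Of 100 genes with a true log2 change of 1 in size, 34 were called, and of 98 with a change of 2, 75 were called. Among the unchanged genes 6 were called. The simulation changed far fewer genes than were called at day 14 in the data. A gene that was not called is therefore not shown to be unchanged. No pair of replicates was close enough to be 1 library (lowest chi-square per degree of freedom 7.1).

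Members and lists were chosen with earlier results of these data known. Named genes were, for each day and for day 14 against day 1 in each arm, up to 6 called rises and 6 called falls with a mean of at least 1 CPM, the 10 highest per kilobase, the 6 smallest p for change between days and 10 fixed names; other members are named to complete a group or an account of calls. Of non-members, up to 3 per list with the smallest p at day 14 were eligible; Gsta3, Muc5b, Cyp2a1, Cyp2b2, Cyp2w1 and Cyp2c11 were named after their values were seen. Cyp2b1 was among the fixed names, but the deposited table holds no gene under that symbol, so its level is not known here. Genes with close copies or overlaps are uncertain: Cyp4f17 with Cyp4f5 on one strand, and Cyp2t1 with Egln2, Cyp2ab1 with Yeats2 and Cyp2e1 with Syce1 on opposite strands. Promoter sequences are RefSeq's, assembly GRCr8.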

Additional observations from a re-analysis of the deposited data

Results flagged for a closer look

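The difference between the 85%-labelled and 21%-labelled lungs itself differed between days for 10 of the 32 tested P450 genes. This was 31.2%, beside 37.6% of all tested genes. The test was edgeR's quasi-likelihood F test over the 5 days, adjusted over all tested genes. The adjusted p was 0.000157 for Cyp2d4, 0.00284 for Cyp2u1, 0.00735 for Cyp26b1 and 0.00752 for Cyp26a1, each of which was called higher at day 14. It was 0.0104 for Cyp20a1, 0.0194 for Cyp39a1 and 0.0269 for Cyp7b1, each of which was called lower at day 14. It was 0.0369 for Cyp1a1, whose counts were at most 8 in a library outside day 3, 0.0386 for Cyp4b1 and 0.0428 for Cyp46a1, both called higher at day 1.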

How the results depend on the processing

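The counts of called P450 genes below are of 32 tested genes in the main analysis. With the mitochondrial share as a covariate the count was 0 at day 1 (main 6), 5 at day 10 (main 2), 6 for day 14 against day 1 in the 85%-labelled arm (main 10) and 5 for change between days (main 10). The share of all tested genes called moved as well. In the same order it was 0.154% (main 41.4%), 4.3% (main 2.93%), 9.64% (main 51.1%) and 19.5% (main 37.6%). Leaving out the libraries above 6% mitochondrial counts keeps only replicate 2 of the 85%-labelled day 1 group. Counts for comparisons with that group are therefore not given for this alternative. In fits of only the groups compared the P450 count was 2 at day 1, 0 at day 10 and 6 for day 14 against day 1 in the 85%-labelled arm. The share of all tested genes was 27.8%, 0.0567% and 42.1% in turn. Fits of this kind give no other value for change between days, which uses all groups. With no low-count filter the P450 count was 1 at day 10, beside 1.44% of all tested genes. At day 14 the count was 14 by DESeq2, 11 with RLE scaling and 11 with no low-count filter (main 12). It was 14 with the covariate and 13 with only the groups compared. The share of all tested genes was 23.1%, 21.2%, 13.4%, 24.5% and 28.1% in turn (main 21.2%). The count was higher still without the libraries above 6% mitochondrial counts, none of which is from day 14. Leaving out each library in turn gave 2 to 8 at day 1, 0 at day 3, 0 to 1 at day 7, 1 to 2 at day 10, 8 to 10 at day 14, 6 to 10 and 8 to 9 for day 14 against day 1 in the 85%-labelled and 21%-labelled arms, and 6 to 13 for change between days. In those fits the share of all tested genes was 28.5% to 47.9% at day 1 and 0.946% to 2.92% at day 10. It was 16.1% to 19.9% at day 14 and 26% to 51.3% for change between days. The direction turned in 2 results: Cyp2j4 at day 1 was -0.16 with the mitochondrial covariate and Cyp4f18 at day 1 was -0.17 without the libraries above 6%. Of 63 results for named genes, 61 never turned, among them the F tests for change between days, which have no direction. In 31 the result neither turned nor lost a call under any alternative run. Some of these were uncalled in the main analysis and gained a call, as Cyp2a1 and Cyp2j4 at day 14 did by DESeq2. The cause of these shifts was not tested. A count of 0 allows up to 3 counts in a library, so differences of the rarest genes were not detectable at this depth.

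With a replicate block the count was 5 at day 1, 0 at days 3 and 7, 1 at day 10, 10 at day 14, 10 and 9 for day 14 against day 1 in the 85%-labelled and 21%-labelled arms and 9 for change between days. It ended the calls of Cyp4f18 at day 1 (adjusted p = 0.149), Cyp2t1 at day 10 (0.125), Cyp4f6 and Cyp3a62 at day 14 (0.0838 and 0.05), Cyp3a9 and Cyp1a1 for day 14 against day 1 in the 21%-labelled arm (0.089 and 0.0593) and Cyp7b1 and Cyp1a1 for change between days (0.061 and 0.133). Nothing in the labels ties same-numbered libraries together. Their deviations correlated above 0.1 in 8 of 15 pairs, with a range of -0.258 to 0.475. At day 3 all 3 pairs were above 0.1 (0.138, 0.107 and 0.303), and no P450 gene was called there with or without the block. Day 7 came close to this (0.12, 0.0997 and 0.133), again with no P450 gene called with or without the block. At days 1, 10 and 14 at least 1 pair lay further under 0.1. The numbers were not treated as a pairing, and the block is given as an alternative only.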
